A study of Rattus norvegicus with 8 samples.

Results

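Long non-coding RNAs (lncRNAs) that lay more than 50 kb from every named gene were examined in rat femur bone around titanium implants. They were 2843 of the 14625 lncRNA rows deposited for the bone (19.4%), at 2101 loci. A row is 1 transcript, and a locus is the set of transcripts that share a locus ID. A lncRNA was taken when its span, on either strand, lay more than 50 kb from each of the 14723 rows of the gene table whose symbol is not a clone name or a LOC, RGD or NEWGENE placeholder. The choice used positions and names and no expression value, and the same rule set aside 134 rows of 3 locus IDs, which are not described here but stay in the totals over all lncRNAs.

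The bone came from male Wistar rats of 12 to 13 weeks with implants in both femoral shafts, and was taken 10 days after implantation within 1 mm of the implant, with adhering muscle removed. The 4 hyperlipidemic libraries are from rats fed a high-fat diet for 8 weeks, and the 4 normal libraries from rats fed a normal diet. All rats of both groups carried implants, so bone without an implant is not part of the comparison. Sequencing was of total RNA after removal of ribosomal RNA, and values are FPKM, that is fragments scaled to transcript length and library size. No label ties the libraries to separate animals, so p-values speak only for the spread among the 8 libraries, and the depth behind each value is unknown.

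LncRNAs are transcripts that are not translated into a known protein, and those that lie between genes are called intergenic. Some intergenic lncRNAs act on chromatin near or far from where they are made, others host small RNAs or mark active enhancers, and for most no role is known. In bone, lncRNAs have been studied for their part in the formation of osteoblasts, which lay down matrix, and of osteoclasts, which resorb it. IDs that begin with MSTRG are transcripts that StringTie assembled from reads, and IDs that begin with ENSRNOT are annotated Ensembl transcripts. No function is annotated in the deposited table for the transcripts named below, so each is placed by its nearest named genes, which are landmarks and not shown to be targets.

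The label intergenic held for only some of these lncRNAs. Of the 2843, 986 (34.7%) overlapped a row of the gene table that carries only a provisional name, 500 more had such a row within 50 kb, and 1357 lay more than 50 kb from every row of the table. Of the 2843, 76 lay on 41 unplaced sequences with no named gene. For 50 of the 2843, at 29 loci, the gene table listed the same locus ID elsewhere under a symbol counted as named. Among these 50 were 4 transcripts that share the ID of Igkv12-44, an immunoglobulin light chain variable segment. Over the 2767 lncRNAs with a named gene on the same sequence, the median distance to it was 146 kb and the greatest 4646 kb. Of these 2767, 375 lay more than 500 kb away and 115 more than 1 Mb. Of all 2843, 1893 lay more than 100 kb away, a count that takes in the 76 on sequences with no named gene.

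Transcripts far from named genes had longer spans at the median than other lncRNAs, as a description with no test over transcripts. Their median span was 5.35 kb, against 3.25 kb for the 3104 lncRNAs within 50 kb of a named gene without overlap and 3.15 kb for the 8544 that overlapped one. Annotated Ensembl transcripts made up 13.2% of the far lncRNAs, 11.1% of those within 50 kb and 1.44% of those overlapping a named gene. Chromosome X held 122 of them among its 344 lncRNA rows (35.5%), chromosome 1 held 412 (24.2% of its rows) and chromosome 8 held 55 (7.11%). Most loci held 1 far transcript (1800 of 2101), and 11 loci held 10 or more.

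Levels were low and detection uneven. The median of the mean FPKM was 0.984 for the far lncRNAs, against 1.03 within 50 kb and 1.53 with overlap. Of the 2843, 1404 averaged at least 1 FPKM over the 8 libraries, 77 at least 10 and 5 at least 100. Only 371 were above 0 in all 8 libraries (13.0%, against 12.7% of those within 50 kb), and 467 were above 0 in 1 library alone. Within each library the share of rows above 0 was lower among far lncRNAs than among those overlapping named genes, by 12.4 percentage points on average (SD 3.58 over 8 libraries, lower in 8 of 8). This passed a two-sided exact sign-flip permutation test over libraries (p = 0.00781, the smallest that 8 libraries can give, and 0.0391 adjusted over the 5 exact tests made). Against lncRNAs within 50 kb the share differed by 0.272 points (SD 2.60, exact permutation p = 0.805), a difference whose sign turned when the limit was set at 100 kb (-1.58 points). The within-library median of log2(FPKM + 0.1) was 0.14 lower in far lncRNAs than within 50 kb (SD 0.33, lower in 4 of 8 libraries and tied in 2, exact permutation p = 0.3125). With the limit at 100 kb it was 0.47 lower (exact permutation p = 0.0313, unadjusted and the smallest possible with 2 of the 8 libraries tied).

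Libraries of the normal group differed widely in how many far lncRNAs they listed above 0. In the hyperlipidemic libraries 1941, 2064, 1475 and 1645 of the 2843 were above 0 (replicates 1 to 4), and in the normal libraries 916, 2027, 1574 and 891. Normal replicates 1 and 4 were the lowest, whereas normal replicate 2 lay between hyperlipidemic replicates 1 and 2, so the groups overlapped. The group means were 1781 ± 269 in hyperlipidemic and 1352 ± 550 in normal libraries (SD, n = 4 each; two-sided exact permutation test, p = 0.257, adjusted 0.391 over the 5 exact tests). Without normal replicates 1 and 4 the difference was -19.3 rows (p = 0.933, exact permutation). The same libraries were low over all lncRNAs, where 59.3% to 81.5% of rows were above 0 in hyperlipidemic and 34.4% to 80.1% in normal libraries. A far lncRNA above 0 in each other library was listed at 0 in normal replicate 1 in 156 cases and in normal replicate 4 in 103, against 3 to 24 in each of the 6 others. A value of 0 is therefore given as listed, and does not show that the RNA was absent.

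**Figure D1:**
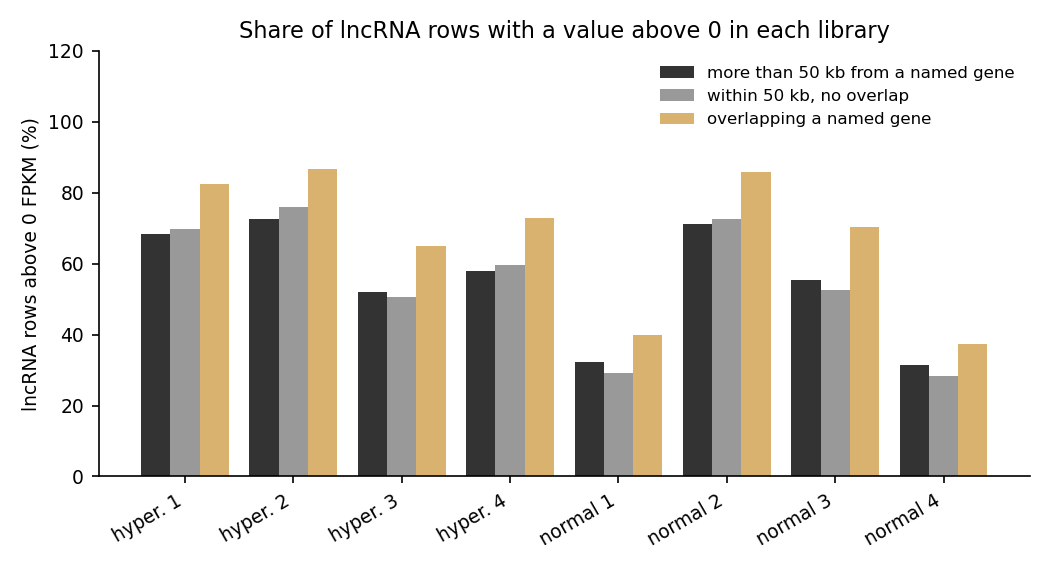
Percent of lncRNA rows above 0 FPKM (y axis) in each of the 4 hyperlipidemic and 4 normal libraries (x axis), with bars for lncRNAs more than 50 kb from a named gene, within 50 kb, and overlapping one. Normal replicates 1 and 4 are lowest in all 3 classes (32.2% and 31.3% of far lncRNAs), and in each library the bar for overlapping lncRNAs is the highest.

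Far lncRNAs took a larger mean share of the summed lncRNA FPKM in hyperlipidemic libraries, and whether the groups were apart depended on what the total held. Over all lncRNAs the share was 12.2%, 10.3%, 14.5% and 11.8% in hyperlipidemic replicates 1 to 4, against 9.59%, 5.45%, 11.2% and 8.60% in normal replicates 1 to 4. The groups overlapped, at hyperlipidemic replicate 2 and normal replicate 3. The means were 12.2% ± 1.72 in hyperlipidemic and 8.72% ± 2.43 in normal libraries (SD, n = 4 each), and the difference of 3.48 points did not pass (two-sided exact permutation test, p = 0.0571; adjusted 0.143). Far lncRNA sums themselves overlapped, where the hyperlipidemic range was 6646 to 10343 FPKM and the normal range 5514 to 7691 FPKM. For lncRNAs within 50 kb the hyperlipidemic share, 21.4% to 30.2%, lay wholly below the normal share, 33.0% to 53.9%. For lncRNAs over a named gene the shares overlapped (hyperlipidemic 27.5% to 53.8%, normal 27.3% to 45.8%). How far the other classes set the far share was not tested. The 134 set-aside rows made up 37.1% of the total in hyperlipidemic replicate 2, against 5.73% to 16.5% in the 7 other libraries. With these rows left out of the total, an alternative added after the values were seen, the share was 13.5%, 16.3%, 16.1% and 14.2% in hyperlipidemic replicates 1 to 4 and 10.2%, 5.82%, 12.5% and 9.58% in normal replicates 1 to 4. The groups then did not overlap, at 15.0% ± 1.41 in hyperlipidemic and 9.51% ± 2.76 in normal libraries (SD, n = 4 each; unadjusted exact permutation p = 0.0286, the smallest that 4 against 4 can give). Counting only lncRNAs more than 100 kb away gave 8.11% ± 0.627 and 5.60% ± 1.46 in hyperlipidemic and normal libraries (n = 4 each, unadjusted exact permutation p = 0.0286). Counting only those more than 50 kb from any row of the gene table gave 4.08% ± 1.74 in hyperlipidemic and 3.59% ± 1.44 in normal libraries (exact permutation p = 0.714). In bulk bone, fewer cells of a type and less RNA per cell cannot be told apart for any of these values.

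Between the groups, 1 far lncRNA passed the test over all lncRNAs, and none of the others could be separated by it from the spread between libraries. Of the 2672 far lncRNAs with a mean of at least 0.1 FPKM, 0 were called higher and 1 was called lower in hyperlipidemic bone (limma, Benjamini-Hochberg adjusted p under 0.05 over 14233 lncRNAs). Over all 14233, limma called 8 higher (0.0562%) and 4 lower (0.0281%), of which 5 higher and 1 lower are set-aside rows. At an unadjusted limma p under 0.05, 136 far lncRNAs (5.09%) were higher and 49 (1.83%) lower, against 6.02% and 1.35% of all lncRNAs tested. The median log2 change was 0.76 for the far lncRNAs and 0.78 for all lncRNAs, so log2 changes were shifted upward over the whole table. Summed lncRNA FPKM was not higher, at 65434 ± 23781 in hyperlipidemic and 78397 ± 17132 in normal libraries (SD, n = 4 each). With 0.01 added in place of 0.1 before log2, the median changes were 1.36 and 1.38, and with 1 added 0.28 and 0.30. After quantile normalization these medians were 0.18 and 0.26, and without normal replicates 1 and 4 they were 0.16 and 0.088. Among the 371 far lncRNAs above 0 in every library the median was 0.22, against 0.19 for the 2503 such lncRNAs of the table.

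Counting transcripts whose groups did not overlap gave shares near the background of the table. In 67 far lncRNAs (2.51%) every hyperlipidemic value lay above every normal value, against 2.93% of all lncRNAs, and in 20 (0.749%) every hyperlipidemic value lay below, against 0.766%. The 67 lay at 62 loci on 19 chromosomes, with log2 changes between 0.69 and 5.84. Of these, 57 were listed at 0 in normal replicate 1, 50 in normal replicate 4 and 44 in both, and 4 were above 0 in all 8 libraries. The 20 lower ones lay at 20 loci on 10 chromosomes, with log2 changes between -7.19 and -0.70, and 5 of them were listed at 0 in every hyperlipidemic library. Without normal replicates 1 and 4 the balance turned. There were then 113 higher (4.43%, against 5.03% of all lncRNAs) and 182 lower (7.14%, against 6.34%). After quantile normalization there were 68 higher (2.54%, against 3.01%) and 88 lower (3.29%, against 2.54%). The lowest sums of fat cell markers came from normal libraries as well. Summed over Adipoq, Plin1, Cidec, Fabp4 and Lep, the values ran from 57.3 to 271 FPKM in hyperlipidemic and from 0 to 53.3 FPKM in normal libraries, with Adipoq at 0 in normal replicates 1, 3 and 4. Most of the fat cell sum was Fabp4, which overlapped between the groups, as did Lep. Bone matrix markers, 6 of 7 listed genes being in the table, summed to between 735 and 1404 FPKM in hyperlipidemic and between 1867 and 2446 FPKM in normal libraries. Most of that sum was Col1a1, and Ibsp, Alpl, Sp7 and Dmp1 each overlapped between the groups. The 4 osteoclast markers summed to between 141 and 293 FPKM in hyperlipidemic and between 313 and 565 FPKM in normal libraries. Of these, Ctsk alone was lower without overlap, and Acp5, Mmp9 and Ocstamp overlapped. Sums of the red cell, cartilage and skeletal muscle markers also looked at overlapped between the groups. Among the cartilage markers Col2a1 alone was higher without overlap, at 5.41 to 46.0 FPKM in hyperlipidemic and 0 to 1.32 FPKM in normal libraries. The part of these cell types in the lncRNA values was not tested.

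**Figure D2:**
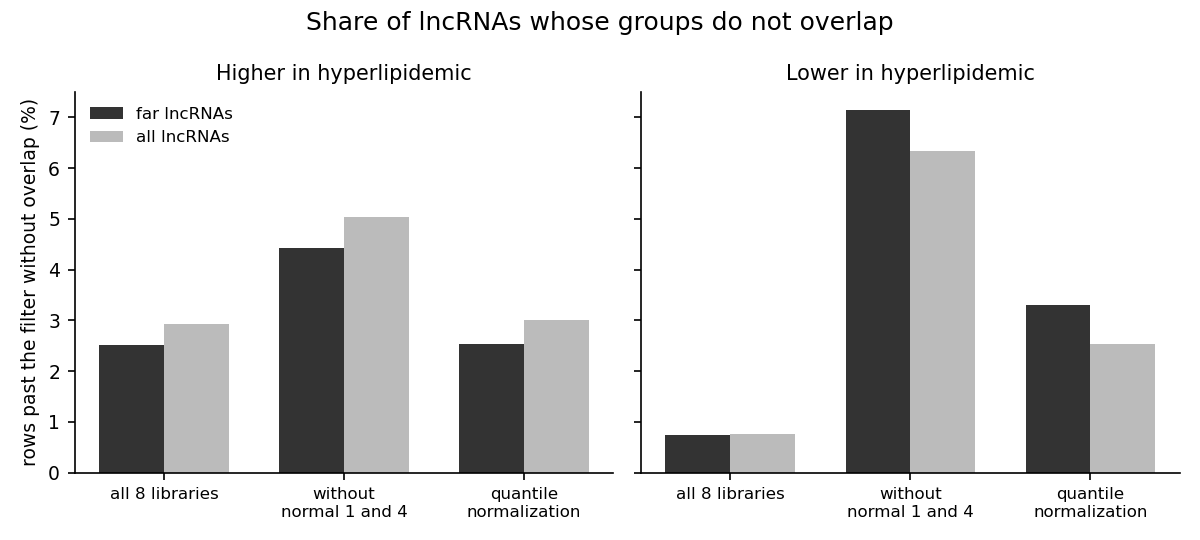
Percent of lncRNAs with a mean of at least 0.1 FPKM whose groups did not overlap (y axis), for far lncRNAs (dark bars) and all lncRNAs (light bars), in all 8 libraries, without normal replicates 1 and 4, and after quantile normalization (x axis). Far lncRNAs stay within 1 percentage point of all lncRNAs in each setting, and the lower share rises to 7.14% once the 2 normal libraries with most zeros are left out.

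The transcript that passed was MSTRG.29274.1, at chr12:31736808-31737249 (Rnor_6.0), a span of 442 bp with no gene row over it. It lies between Rimbp2, which encodes a scaffold protein of presynaptic terminals and is 116 kb away, and the membrane protein gene Tmem132d, 197 kb away. It was listed at 0 in hyperlipidemic replicates 1 to 3 and at 0.748 FPKM in hyperlipidemic replicate 4, against 35.2, 37.2, 8.51 and 33.9 FPKM in normal replicates 1 to 4. Every normal value was thus more than 10 times the highest hyperlipidemic value. The log2 change was -7.19 (SE 0.951, limma adjusted p = 0.00118). The adjusted p ran from 0.000611 to 0.0264 when each library was left out in turn. It did not pass with a pseudocount of 0.01 (0.0576), without a trend in the prior variance (0.0865) or without normal replicates 1 and 4 (0.344), and the log2 change ran from -9.71 to -4.50 over the settings tried. In the authors' deposited table its fold change was 0.0589, with p = 0.000352 and q = 0.429.

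The 8 far lncRNAs with the largest higher values, among those without overlap and with a mean of at least 0.5 FPKM, came from 8 loci on different chromosomes and none passed (limma adjusted p from 0.119 to 0.411). MSTRG.75966.1 (chr20:28393726-28396386) lies between Edar, the ectodysplasin receptor of hair and tooth development, and Sh3rf3. It measured 8.85, 8.36, 1.37 and 9.51 FPKM in hyperlipidemic replicates 1 to 4 and was listed at 0 in all 4 normal libraries (adjusted p = 0.119). Its span lies, strand ignored, within that of another locus, MSTRG.75965. The 14 far transcripts of MSTRG.75965 summed to 32.4, 26.3, 46.6 and 34.5 FPKM in hyperlipidemic libraries. In normal libraries they summed to 13.3, 19.4, 40.5 and 11.9 FPKM, so those sums overlapped. MSTRG.94674.1 (chr4:159880948-159886562), between the cell cycle gene Ccnd2 and Parp11, was also listed at 0 in every normal library. It measured 2.94, 0.708, 7.07 and 3.43 FPKM in hyperlipidemic libraries (limma adjusted p = 0.411). With the second transcript of its locus, which lies in the same span, the sums overlapped, at 4.44, 1.99, 7.27 and 4.67 FPKM in hyperlipidemic and 5.66, 1.27, 4.41 and 0 FPKM in normal libraries. No fold is given for either, since a group at 0 sets no ratio.

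In the other 6 at least 1 normal library was above 0. Of the 8 higher transcripts 6 belong to loci with more than 1 far lncRNA, and at 5 of these 6 the locus sum overlapped between the groups. MSTRG.116359.1 (chr7:109767855-109771001) lies 261 kb from Khdrbs3, which encodes an RNA-binding splicing regulator. It measured 8.41, 17.6, 16.7 and 7.302 FPKM in hyperlipidemic replicates 1 to 4 and 0, 4.81, 0 and 0.000332 FPKM in normal replicates 1 to 4 (log2 change 5.47, SE 1.17, limma adjusted p = 0.134). With each library left out in turn, its limma adjusted p ran from 0.00871 to 0.721. The lowest came without normal replicate 2, which held its highest normal value. The 5 transcripts of its locus, all within the same span, were lower on average in hyperlipidemic libraries, where they summed to 14.2, 18.2, 16.7 and 13.0 FPKM, against 13.5, 26.6, 28.1 and 35.5 FPKM in normal libraries. MSTRG.66365.3 (chr2:87598286-87620443), 477 kb from Car2, the carbonic anhydrase that osteoclasts use to acidify bone, measured 3.81, 3.69, 12.1 and 6.07 FPKM in hyperlipidemic libraries. In normal libraries it was at 0.367 FPKM in replicate 2 and listed at 0 in the rest (log2 change 5.30, SE 1.13, adjusted p = 0.134 by limma). It passed after quantile normalization (adjusted p = 0.0193). Its locus of 5 transcripts summed to 19.7 ± 8.51 FPKM in hyperlipidemic and 10.0 ± 5.26 FPKM in normal libraries, with overlap. For both named transcripts normal replicate 2 was the normal library nearest to the hyperlipidemic ones.

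MSTRG.41296.1 (chr15:2467884-2468599), 89.5 kb from the zinc finger gene Zfp503, measured 2.87, 6.20, 9.91 and 8.02 FPKM in hyperlipidemic libraries against 0, 2.74, 0 and 0 FPKM in normal libraries, so that the groups were only just apart. MSTRG.108259.2 (chr6:78086897-78101822), 71.0 kb from Mipol1, measured 7.45, 3.86, 3.82 and 7.59 FPKM in hyperlipidemic libraries and 0, 0.0250, 1.74 and 0 FPKM in normal libraries, and the sums of its locus of 2 transcripts did not overlap either. Both had a limma adjusted p of 0.276. The last of the 8, MSTRG.99415.5 and MSTRG.11496.61, are described with their loci.

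**Figure D3:**
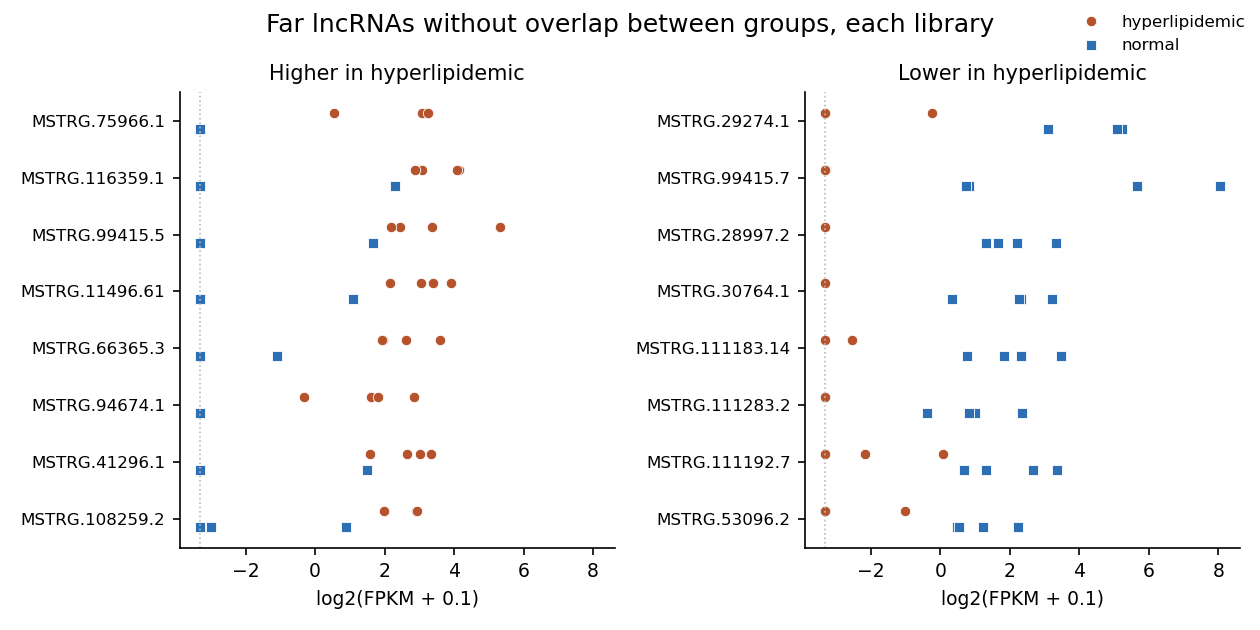
FPKM on a log2 scale after adding 0.1 (x axis) for the 8 far lncRNAs with the largest higher and the 8 with the largest lower values among those without overlap (y axis), with a circle for each hyperlipidemic and a square for each normal library. The dotted line marks a listed value of 0, where most normal values lie in the left panel and most hyperlipidemic values in the right panel.

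The 8 largest lower values, besides MSTRG.29274.1, were mostly of transcripts listed at 0 in hyperlipidemic libraries, and the other 7 did not pass (limma adjusted p from 0.0835 to 0.572). MSTRG.28997.2 (chr12:21892615-21895132) lies 92.8 kb from Ppp1r35, a centrosome gene. It was listed at 0 in all hyperlipidemic libraries and measured 9.99, 4.55, 2.41 and 3.06 FPKM in normal replicates 1 to 4 (adjusted p = 0.167). MSTRG.30764.1 (chr13:7298252-7298721), in a region of few genes 951 kb from the nearest gene row counted as named, was likewise at 0 in all hyperlipidemic libraries. It measured 4.88, 1.17, 9.21 and 4.72 FPKM in normal libraries (limma adjusted p = 0.211). MSTRG.53096.2 (chr17:46853756-46884766), 58.9 kb from Elmo1, which acts in the uptake of dying cells, was at 0.397 FPKM in hyperlipidemic replicate 1 and at 0 in the other 3. In normal libraries it measured 1.28, 1.35, 4.57 and 2.24 FPKM (limma adjusted p = 0.572). Of the 8, MSTRG.28997.2 was the 1 at a locus of several far lncRNAs whose sum was also lower without overlap, at 0.171 ± 0.0557 FPKM in hyperlipidemic and 8.53 ± 4.83 FPKM in normal libraries, while the sums overlapped at the loci of MSTRG.99415.7, MSTRG.111183.14 and MSTRG.111192.7.

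Of the 20 far lncRNAs lower without overlap, 5 lay between 138 and 144 Mb of chromosome 6, a stretch that holds variable segments of the immunoglobulin heavy chain, the antibody chain that B cells assemble by joining segments. Over all lncRNAs 0.766% were lower without overlap. The stretch was picked out after these values were seen, so its count cannot be read against that share. The 3 that rank among the largest were MSTRG.111183.14 (chr6:139478442-139478884), MSTRG.111192.7 (chr6:140178538-140179071) and MSTRG.111283.2 (chr6:143037472-143196544). MSTRG.111183.14 measured 0.0716, 0, 0 and 0 FPKM in hyperlipidemic libraries and 11.0, 1.61, 4.88 and 3.46 FPKM in normal libraries. MSTRG.111192.7 measured 0.956, 0.125, 0 and 0 FPKM in hyperlipidemic libraries and 1.51, 6.32, 2.40 and 10.2 FPKM in normal libraries. MSTRG.111283.2, 104 kb from Ighv1-47, was at 0 in all hyperlipidemic libraries and at 5.02, 1.88, 0.668 and 1.67 FPKM in normal libraries. The stretch as a whole did not separate the groups. Its 40 far lncRNAs, 1 of them higher without overlap, summed to 241, 152, 221 and 211 FPKM in hyperlipidemic libraries and to 373, 227, 224 and 198 FPKM in normal libraries. Between 17 and 21 Mb of chromosome 3, where light chain segments lie, 56 far lncRNAs had no member without overlap. They summed to 547 ± 193 FPKM in hyperlipidemic and 419 ± 142 FPKM in normal libraries (SD, n = 4 each). Between 102 and 105 Mb of chromosome 4, a stretch also looked at, 2 of 10 far lncRNAs were lower and 0 higher without overlap. Its sums were 31.5 ± 12.2 FPKM in hyperlipidemic and 42.7 ± 10.9 FPKM in normal libraries. This stretch and that of chromosome 3 were likewise picked out after the values were seen, so the same limit holds for their counts.

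The authors' deposited table gave no far lncRNA a q under 0.05, and 218 of the 2843 a p under 0.05, of which 56 were higher and 162 lower. Of all 14625 lncRNAs, the same table gave 1 a q under 0.05 and 1040 a p under 0.05, of which 377 were higher and 663 lower. It marks a row as up or down at a fold change of 2. By the authors' deposited table, far lncRNAs marked up numbered 169 (5.94%, against 6.54% of all lncRNAs) and those marked down 277 (9.74%, against 9.27%). More were thus marked down than up, unlike the 67 and 20 without overlap over all 8 libraries and like the counts without normal replicates 1 and 4 or after quantile normalization. Among those with the smallest p there, ENSRNOT00000088476 (chr4:84268-90986) is an annotated transcript near the start of its chromosome, 251 kb from Insig1, which restrains sterol synthesis. It measured 3.32, 3.43, 4.35 and 4.92 FPKM in hyperlipidemic replicates 1 to 4 and 0, 0.0405, 0.923 and 0 FPKM in normal replicates 1 to 4. Values within the hyperlipidemic group were close together and the groups were apart. The authors' deposited table gave it p = 0.000143 and q = 0.354, and limma an adjusted p of 0.324 (log2 change 4.38, SE 1.18).

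Also among the authors' smallest p were MSTRG.118494.1 (chr7:137837719-137846063), 129 kb from the amino acid transporter gene Slc38a1, and MSTRG.87749.38 (chr4:14072948-14152780), 165 kb from the guidance factor gene Sema3c. MSTRG.118494.1 overlaps the provisional gene LOC688906 and measured 3.06, 1.72, 3.52 and 2.68 FPKM in hyperlipidemic libraries against 0, 0.380, 0 and 0 FPKM in normal libraries. MSTRG.87749.38 overlaps RGD1565355 and measured 8.71, 2.53, 11.8 and 5.62 FPKM in hyperlipidemic libraries against 0, 0.537, 1.57 and 0 FPKM in normal libraries. Neither passed (limma adjusted p of 0.466 and 0.276), and MSTRG.87749.38 passed after quantile normalization (0.0417). The 13 transcripts of the locus of MSTRG.87749.38 had sums that overlapped, at 38.3, 13.7, 73.7 and 41.9 FPKM in hyperlipidemic libraries. In normal libraries these sums were 15.2, 6.37, 47.5 and 6.04 FPKM. MSTRG.111180.3, in the heavy chain stretch, was lower in the authors' deposited table (fold change 0.251, p = 0.00478), but its groups overlapped. It measured 0.159, 0.0232, 0 and 0.549 FPKM in hyperlipidemic libraries and 0.926, 1.65, 9.71 and 0 FPKM in normal libraries.

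The 10 most abundant far lncRNAs held 22.2% of the far lncRNA FPKM, and 2 of the 8 described here, MSTRG.38486.1 and MSTRG.106164.12, were far highest in hyperlipidemic replicate 2. The most abundant, MSTRG.38486.1 (chr14:46329443-46649090), measured 161, 3420, 315 and 342 FPKM in hyperlipidemic replicates 1 to 4 and 287, 221, 383 and 290 FPKM in normal replicates 1 to 4. Apart from hyperlipidemic replicate 2 its levels overlapped. Its locus ID is also that of a gene row of 49 bp with a provisional name and the same mean of 677 FPKM. Its span also covers a row of LOC257642. MSTRG.106164.12 (chr6:30631950-30633863), 445 kb from Itsn2, was at 607 FPKM in hyperlipidemic replicate 2, at 0.584, 0 and 15.0 FPKM in hyperlipidemic replicates 1, 3 and 4, and between 0 and 2.54 FPKM in normal libraries. MSTRG.106164.14, which shares most of its span, was high in hyperlipidemic replicates 2 and 4 (366 and 385 FPKM) and at 30.5 and 0.00343 FPKM in replicates 1 and 3, against 7.95 to 33.6 FPKM in normal libraries. In contrast, MSTRG.106164.4 of the same locus was even across hyperlipidemic libraries, at 48.6, 50.8, 48.0 and 52.6 FPKM, and uneven across normal libraries, at 0, 153, 127 and 82.2 FPKM.

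Other abundant transcripts varied less. MSTRG.119095.1 (chr8:148229-182350), 226 kb from Gucy1a2, a subunit of the nitric oxide receptor, measured 170, 130, 112 and 132 FPKM in hyperlipidemic libraries and 299, 276, 132 and 160 FPKM in normal libraries. The groups overlapped, at 136 ± 24.4 FPKM in hyperlipidemic and 217 ± 83.0 FPKM in normal libraries (SD, n = 4 each; log2 change -0.61, limma adjusted p = 0.690). MSTRG.27114.1 (chr11:85992685-86092918), 75.3 kb from the histone chaperone gene Hira, averaged 117 ± 64.3 FPKM in hyperlipidemic and 132 ± 46.5 FPKM in normal libraries (adjusted p = 0.817 by limma). MSTRG.12401.1 (chr1:227110939-227113972), 104 kb from Ms4a4a, averaged 63.2 ± 9.47 FPKM in hyperlipidemic and 83.0 ± 25.2 FPKM in normal libraries (limma adjusted p = 0.715).

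When far lncRNAs were summed over short stretches around these loci, again picked out after their values were seen, hyperlipidemic replicate 2 stood apart on 3 chromosomes. Between 46.2 and 46.7 Mb of chromosome 14 the sums were 163, 3421, 330 and 362 FPKM in hyperlipidemic libraries and 289, 223, 456 and 290 FPKM in normal libraries. Between 30.6 and 31.1 Mb of chromosome 6 they were 129, 2173, 121 and 597 FPKM in hyperlipidemic libraries and 24.1, 582, 347 and 474 FPKM in normal libraries. Between 91 and 91.3 Mb of chromosome 5 they were 368, 1236, 451 and 372 FPKM in hyperlipidemic libraries and 182, 498, 705 and 718 FPKM in normal libraries. Together the 36 far lncRNAs of these 3 stretches made up 66.0% of the far lncRNA FPKM of hyperlipidemic replicate 2, against 6.57% to 26.9% in the 7 other libraries. Left out of the sums, they reduced the share of lncRNA FPKM in far lncRNAs to 9.38% ± 3.96 in hyperlipidemic and 7.23% ± 2.37 in normal libraries (SD, n = 4 each; two-sided exact permutation p = 0.371). With the set-aside rows also left out it was 11.2% ± 3.48 in hyperlipidemic and 7.89% ± 2.60 in normal libraries (exact permutation p = 0.171). Without hyperlipidemic replicate 2 the chromosome 14 sum averaged 285 ± 107 FPKM in the 3 hyperlipidemic libraries left, against 315 ± 99.6 FPKM in the 4 normal libraries.

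**Figure D4:**
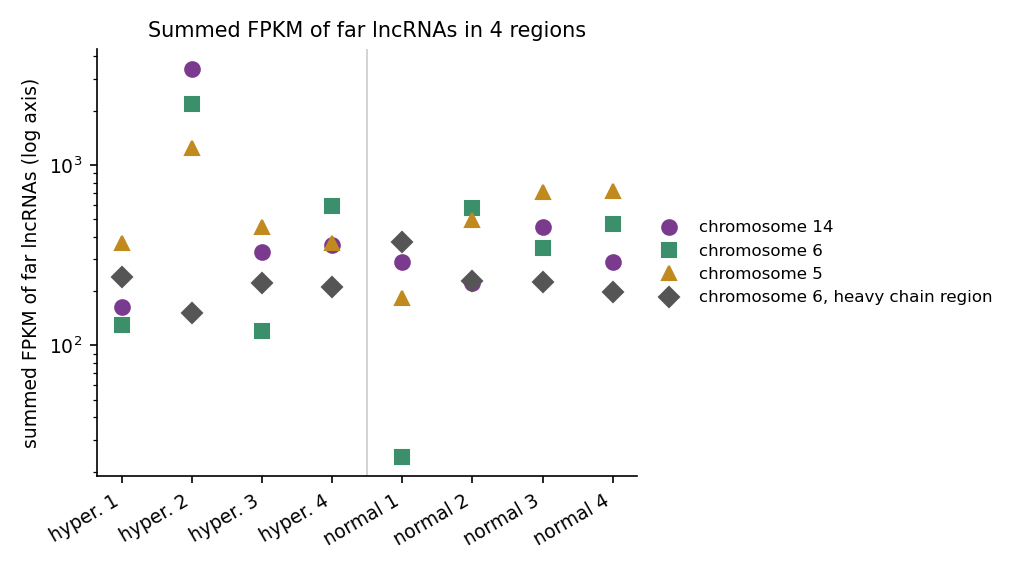
Summed FPKM of the far lncRNAs in 4 stretches of the genome (y axis, log scale) in each library (x axis), with 1 symbol per stretch. Hyperlipidemic replicate 2 lies above all other libraries for the stretches on chromosomes 14 (3421 FPKM), 6 (2173 FPKM) and 5 (1236 FPKM), and not for the heavy chain stretch of chromosome 6 (152 FPKM).

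Transcripts of 1 locus often varied more between libraries than the locus as a whole did. At the 301 loci with 2 or more far lncRNAs the median coefficient of variation over the 8 libraries was 146% for single transcripts and 80.7% for the locus sum, and the sum varied less than the median transcript at 291 loci. The sum of several values that vary apart varies less by arithmetic, so this is a description. The clearest case was MSTRG.11496, the locus with most far lncRNAs. Its 104 transcripts lie at chr1:215904824-215989622, over the provisional gene AC099449.1 and next to Igf2, an imprinted growth factor gene of fetal and bone tissue. They summed to 361, 237, 329 and 321 FPKM in hyperlipidemic replicates 1 to 4 and to 334, 265, 335 and 269 FPKM in normal replicates 1 to 4. These sums were close in all 8 libraries, at 312 ± 52.9 FPKM in hyperlipidemic and 301 ± 38.8 FPKM in normal libraries (SD, n = 4 each), with a coefficient of variation of 14.2%.

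Within that locus, 3 of the 104 transcripts (2.88%) were higher and 1 (0.962%) was lower without overlap, shares near the 2.93% and 0.766% of all lncRNAs. MSTRG.11496.61 (chr1:215909283-215937907) measured 10.4, 4.35, 14.8 and 8.23 FPKM in hyperlipidemic libraries and 0, 0, 2.05 and 0 FPKM in normal libraries (log2 change 5.34, SE 1.13, limma adjusted p = 0.134). MSTRG.11496.93 (chr1:215929627-215938051), whose span overlaps it, measured 3.49, 4.96, 4.31 and 3.98 FPKM in hyperlipidemic libraries and 5.29, 7.16, 7.96 and 7.04 FPKM in normal libraries (log2 change -0.70, adjusted p = 0.690 by limma). Neither passed, although MSTRG.11496.61 passed after quantile normalization (adjusted p = 0.0130). With each library left out in turn, the limma adjusted p of MSTRG.11496.61 ran from 0.00774 to 0.725. The lowest came without normal replicate 3, the only normal library where it was above 0. Between 81 and 93 of the 104 transcripts were above 0 in hyperlipidemic libraries, and 54, 84, 84 and 56 in normal replicates 1 to 4. The sources used here do not give how fragments were divided among transcripts that share sequence, so values of single transcripts of such a locus are uncertain.

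**Figure D5:**
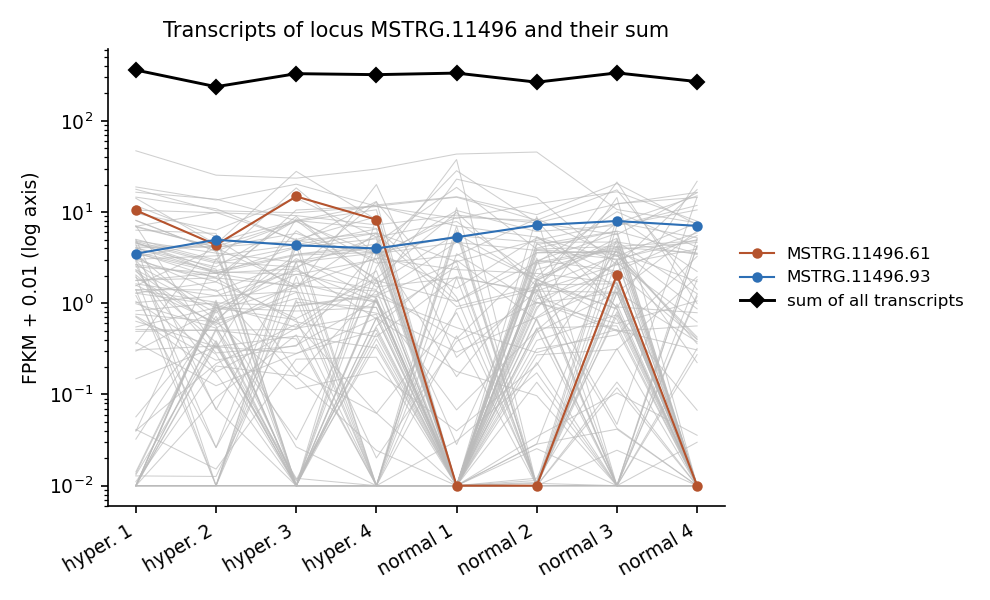
FPKM plus 0.01 (y axis, log scale) of the 104 far transcripts of locus MSTRG.11496 in each library (x axis), with 1 grey line per transcript, the transcripts MSTRG.11496.61 and MSTRG.11496.93 in colour, and the sum of all transcripts in black. The sum stays between 237 and 361 FPKM in all 8 libraries while single transcripts reach 0.

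Transcripts without overlap in both directions were found at 3 of the 301 loci with several far lncRNAs, this locus and 2 others. At MSTRG.99415, 17 transcripts within chr5:91125376-91140496 near Kdm4c, a histone demethylase gene, included MSTRG.99415.5 and MSTRG.99415.7, which overlap over nearly their whole span. MSTRG.99415.5 measured 10.2, 5.35, 40.2 and 4.47 FPKM in hyperlipidemic libraries and 0, 0, 0 and 3.10 FPKM in normal libraries (log2 change 5.41, SE 1.20, limma adjusted p = 0.145). With each library left out in turn, its limma adjusted p ran from 0.0166 to 0.735. The lowest came without normal replicate 4, the only normal library where it was above 0. MSTRG.99415.7 measured 0, 0.00134, 0 and 0 FPKM in hyperlipidemic libraries and 50.5, 1.69, 1.58 and 265 FPKM in normal libraries (log2 change -7.14, SE 1.42, limma adjusted p = 0.0835). With each library left out in turn, its limma adjusted p ran from 0.0283 (without normal replicate 3) to 0.507. The locus sum overlapped between the groups, as given above for chromosome 5. Its most abundant transcript, MSTRG.99415.10, measured 172, 223, 37.2 and 41.8 FPKM in hyperlipidemic libraries and 0, 187, 284 and 230 FPKM in normal libraries. At MSTRG.9058 on chromosome 1, MSTRG.9058.3 measured 1.12 to 2.09 FPKM in hyperlipidemic and 0 to 0.509 FPKM in normal libraries, while MSTRG.9058.2 measured 0.0836 to 0.704 FPKM in hyperlipidemic and 0.946 to 3.12 FPKM in normal libraries.

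The next 2 loci by number of far lncRNAs held no transcript without overlap. MSTRG.9056 (21 transcripts, chr1:180733402-181295170) summed to 17.9 ± 8.97 FPKM in hyperlipidemic and 20.4 ± 22.6 FPKM in normal libraries, where normal replicate 4 alone was at 54.0 FPKM. MSTRG.78883 (20 transcripts, chr3:20512609-20661446) summed to 190 ± 62.3 FPKM in hyperlipidemic and 169 ± 72.4 FPKM in normal libraries (SD, n = 4 each). Locus sums did separate the groups at MSTRG.132066 (9 transcripts, chr9:103525660-103557547), picked out after its values were seen. The sums there were 16.7, 6.37, 31.7 and 22.9 FPKM in hyperlipidemic libraries and 0, 3.37, 1.92 and 0 FPKM in normal libraries (log2 change 5.03, limma adjusted p = 0.110 over locus sums).

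Of the 6 farthest transcripts, 3 were above 0 in 1 or 2 libraries and 3 in 5 or 6. MSTRG.30659.1 (chr13:20060145-20177555) lies 4646 kb from the cadherin gene Cdh20, the nearest named gene, and was listed at 0 in all hyperlipidemic libraries and at 3.00 FPKM in normal replicate 2 alone. MSTRG.30666.1, 3532 kb from the same gene, was at 6.11 FPKM in normal replicate 3 alone. MSTRG.91489.1 (chr4:109325508-109371115), 3291 kb from Gcfc2, was at 1.61 and 2.08 FPKM in hyperlipidemic replicates 1 and 3 and at 0 in the 6 other libraries. MSTRG.59585.1, 3285 kb from Cdh11, the cadherin of bone-forming cells, was below 2 FPKM in every library. MSTRG.30679.1, 2607 kb from Cdh20, was at 11.1 FPKM in hyperlipidemic replicate 3 and below 2 FPKM elsewhere. MSTRG.5982.1 (chr1:120229441-120230585), 2751 kb from the imprinted gene Ndn, was above 0 in 3 libraries of each group, at 2.39, 1.26, 0.947 and 0 FPKM in hyperlipidemic and 3.50, 1.68, 0.903 and 0 FPKM in normal libraries.

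Rows just inside and just outside the limit were all low. Just inside, MSTRG.95378.1 lay 50020 bp from Clec2d with a mean of 3.32 FPKM, ENSRNOT00000077785 lay 50074 bp from Ndufa10 with 0.833 FPKM, and MSTRG.73077.1 lay 50084 bp from Ddit4l with 0.830 FPKM. Just outside, MSTRG.52224.1 lay 49910 bp from Exoc2 with 0.763 FPKM, MSTRG.44725.1 lay 49819 bp from Akap11 with 0.246 FPKM, and MSTRG.74177.1 lay 49771 bp from Ier3 with 1.35 FPKM. The 3 just outside averaged 1.53, 0.492 and 2.69 FPKM in hyperlipidemic libraries and were listed at 0 in every normal library. The 3 just inside averaged 1.88, 0.702 and 0 FPKM in hyperlipidemic libraries and 4.75, 0.965 and 1.66 FPKM in normal libraries.

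Far lncRNAs followed their nearest named gene weakly. Over 267 far lncRNAs above 0 in all libraries, the median Pearson's r with that gene across the 8 libraries, after removal of group means, was 0.145. It was 0.158 over 297 lncRNAs within 50 kb and 0.404 over 1651 that overlap a named gene. The pairs share libraries and depth, and overlapping pairs share sequence, so these r values carry no test. Of 24 well-known lncRNA genes looked for by name in the gene table, Pvt1 and Tug1 were present. Tug1, first described in the retina, measured 13.2, 8.61, 15.1 and 14.8 FPKM in hyperlipidemic libraries and 11.6, 7.85, 14.3 and 8.32 FPKM in normal libraries, so that it overlapped between the groups. Pvt1, the neighbour of Myc, measured 0.866 to 1.84 FPKM in hyperlipidemic and 0.183 to 2.02 FPKM in normal libraries.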

How the data were processed

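Total RNA of 8 libraries, 4 hyperlipidemic and 4 normal, was examined. The submitters' processing notes name StringTie 1.3.3b, HISAT2 2.1.0, bcl2fastq 1.8.4 and the build Rnor_6.0. The sources used here do not give their roles and parameters, the annotation or the lncRNA filter. Libraries were strand-specific (dUTP method), per the labels' protocols. The authors deposited FPKM values for each library, and their table also holds a fold change (a ratio of hyperlipidemic to normal), its log2 value, a p-value and a q-value from a test that the sources used here do not name. The deposited values hold no counts, so depth is unknown. FPKM of 1 library sum over all its transcripts, so a few abundant ones lower the rest.

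Distances ran from span to span, strand ignored. Of 19120 gene rows, 14723 were counted as named, 23 of which have a blank symbol (with these left out, 2858 lncRNAs would be far). Clone names with another prefix, such as Rn60, counted as named. Rows with a mean of at least 0.1 FPKM were taken to log2 after adding 0.1 and compared with limma 3.58.1 in R 4.3.3 (trend in the prior variance), with Benjamini-Hochberg adjustment over 14233 lncRNAs. Two-sided exact permutation tests ran over 70 assignments for library values and 256 sign flips for classes. The tests were tried on simulated data with known changes. The labels name no batch.

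Named were called transcripts, the 8 changed most in each direction among those without overlap and a mean of at least 0.5 FPKM, the 8 most abundant, the 6 farthest, the 3 on each side of the limit, the 5 of smallest deposited p in each direction and the 3 loci with most members. The members, lists and tests were chosen with earlier results of these data known. Alternatives covered pseudocount, filter, scaling, replicate block, prior trend, distance limit, 1 transcript per locus and each library left out. Added after the data were seen were leaving out normal replicates 1 and 4, locus sums, 3 stretches or the 134 set-aside rows left out and the comparison of percent above 0. No lncRNA sequence was used here.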

Additional observations from a re-analysis of the deposited data

Results flagged for a closer look

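In each group of 4, a library was looked for whose gap to its nearest neighbour was, as a part of the group's whole range, above Dixon's limit for 4 values. Of 102 groups, 30 had such a library, of which 7 were hyperlipidemic replicate 2. Chance flags about 1 in 20 groups, and groups with 3 libraries at 0 meet the limit whenever the last is above 0.

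Sums over far lncRNAs stood apart in hyperlipidemic replicate 2, at 10343 FPKM for all of them, 3421 FPKM for the chromosome 14 stretch and 1236 FPKM for the chromosome 5 stretch, which is locus MSTRG.99415 with the same 1236 FPKM. The heavy chain stretch stood apart in normal replicate 1, at 373 FPKM.

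Single transcripts that stood apart in hyperlipidemic libraries were MSTRG.38486.1 (3420 FPKM), MSTRG.106164.12 (607 FPKM) and MSTRG.99415.7 (0.00134 FPKM) in replicate 2, and MSTRG.30679.1 (11.1 FPKM), MSTRG.75966.1 (1.37 FPKM) and MSTRG.99415.5 (40.2 FPKM) in replicate 3. In replicate 4 they were MSTRG.29274.1 (0.748 FPKM) and MSTRG.59585.1 (1.76 FPKM), and in replicate 1 MSTRG.111183.14 (0.0716 FPKM), MSTRG.111192.7 (0.956 FPKM) and MSTRG.53096.2 (0.397 FPKM).

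In normal replicate 2 the transcripts that stood apart were MSTRG.118494.1 (0.380 FPKM), MSTRG.30659.1 (3.00 FPKM), MSTRG.59585.1 (0.921 FPKM), MSTRG.106164.12 (2.54 FPKM), MSTRG.116359.1 (4.81 FPKM), MSTRG.41296.1 (2.74 FPKM) and MSTRG.66365.3 (0.367 FPKM). In normal replicate 3 they were MSTRG.111180.3 (9.71 FPKM), ENSRNOT00000088476 (0.923 FPKM), MSTRG.29274.1 (8.51 FPKM, the lowest normal value), MSTRG.30666.1 (6.11 FPKM), MSTRG.108259.2 (1.74 FPKM) and MSTRG.11496.61 (2.05 FPKM). In normal replicate 4 it was MSTRG.99415.5 (3.10 FPKM).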

How the results depend on the processing

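Calls were few and moved with the setting. Far lncRNAs called higher by limma numbered 3 after quantile normalization and 1 without normal replicates 1 and 4, against 0, and between 0 and 4 with each library left out. Over all lncRNAs tested there were 14 and 6, against 8, and between 6 and 13. Far lncRNAs called lower numbered 0 with a pseudocount of 0.01 or no prior trend, against 1, and 1 to 3 with each library left out. Over all lncRNAs tested there were 2 and 1, against 4, and 3 to 8. The far count without overlap and higher, 67 of 2672 in all libraries, was 43 of 1404 at a mean of at least 1 FPKM, 113 of 2549 without normal replicates 1 and 4, and 41 of 1934 for locus sums. Over all lncRNAs it was 417 of 14233, and in those settings 314 of 8972, 698 of 13866 and 305 of 10736. The far count was 39 of 1774 beyond 100 kb, 31 of 1353 beyond 50 kb from any gene row and 38 of 1934 with 1 transcript per locus. With each library left out, where 3 libraries meet 4, it was 79 to 193, against 513 to 1238 over all lncRNAs. The far count lower, 20 of 2672, was 88 of 2672 after quantile normalization, 182 of 2549 without normal replicates 1 and 4, 11 of 1353 beyond 50 kb from any gene row, and 26 to 49 with each library left out. Over all lncRNAs the count lower was 109 of 14233, with 362 of 14233 after quantile normalization and 879 of 13866 without normal replicates 1 and 4. With each library left out it was 141 to 250.

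Beyond 100 kb the share of lncRNA FPKM (2.51 points, exact permutation p = 0.0286) and the lower median level (-0.47, exact permutation p = 0.0313) were under 0.05 without adjustment. So was the share with the 134 set-aside rows left out of the total (5.52 points, exact permutation p = 0.0286). These are picked from several alternatives, and in the main setting neither the share nor the median level passed. The number of far lncRNAs above 0 turned to -19.3 without normal replicates 1 and 4. The difference in percent above 0 from lncRNAs within 50 kb turned to -1.58 beyond 100 kb, -1.53 beyond any gene row and -0.840 with 1 transcript per locus, and ran from -0.145 to 0.806 with each library left out.

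Among named transcripts the log2 change reversed for MSTRG.106164.14 with a pseudocount of 0.01 (-0.29), without normal replicates 1 and 4 (-0.30) and on leaving out hyperlipidemic replicates (to -0.83 and -0.86). It reversed for MSTRG.106164.4 (-1.47) and MSTRG.99415.10 (-1.39) without normal replicates 1 and 4, and for MSTRG.27114.1 (0.00069). With each library left out the range was -0.86 to 3.10 for MSTRG.106164.14, -1.22 to 2.30 for MSTRG.106164.4, -0.58 to 0.028 for MSTRG.27114.1, -0.16 to 1.31 for MSTRG.38486.1 and -1.39 to 2.44 for MSTRG.99415.10. None of these was called in any setting, and the cause was not tested.

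Replicate numbers did not pair the libraries (correlations of deviations between -0.0188 and 0.0716). With the replicate block the share of lncRNA FPKM had an exact permutation p of 0.125. That is the smallest that 4 pairs can give, so this test could not pass. The number above 0 had an exact permutation p of 0.375. Depth is unknown, so no level is set below which a value of 0 is uninformative.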
